A study of Homo sapiens with 18 samples.

Results

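KDSR knockout was compared between the colon line DLD1 and the liver line HUH7: for each gene, the change in DLD1 (KDSR KO minus CTRL) minus the change in HUH7 (KDSR KO minus CTRL), on the log2(TPM + 1) scale. TPM is the share of the measured mRNA that a gene takes, scaled to a fixed total and corrected for gene length. A positive difference means that the change was more positive in DLD1 than in HUH7. A gene was compared if its mean reached 1 TPM in each line, which held for 13412 of the 27166 genes in the deposited table. SNORA49 (1.0001 TPM in DLD1 and 1.21 TPM in HUH7) and RBP7 (1.0002 and 11.4 TPM in the same order) lay just inside this limit. AC244197.2 (1.16 TPM in DLD1 and 0.999842 TPM in HUH7) and ZP3 (1.83 and 0.999811 TPM in the same order) lay just outside it.

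The 4 groups were DLD1 KDSR KO, DLD1 CTRL, HUH7 KDSR KO and HUH7 CTRL, with 3 biological replicates each, making 12 of the series' 18 RNA sequencing libraries. DLD1 is an established line from a colon adenocarcinoma, and HUH7 one from a hepatocellular carcinoma. All cells received lentiCRISPR v2, which brings in Cas9 and a guide RNA; the KDSR KO cells carried 1 guide against KDSR and the CTRL cells a guide with no target. All groups went through 5 days of puromycin selection and gave RNA on day 8 after infection. The labels name no clones, so a library may hold a mixed population of edited and unedited cells, and they name only 1 guide, so an effect of KDSR loss and one of that guide elsewhere cannot be told apart.

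KDSR encodes 3-ketodihydrosphingosine reductase, an enzyme on the cytosolic face of the endoplasmic reticulum. It acts in de novo sphingolipid synthesis, after serine palmitoyltransferase has joined serine to a fatty acyl group and before the ceramide synthases. Several stress programmes watch over the compartments involved: HSF1 drives the cytosolic heat shock genes, ATF6, XBP1 and ATF4 serve the unfolded protein response of the endoplasmic reticulum, NRF2 drives antioxidant genes, and SREBP2 drives cholesterol synthesis when sterols are low.

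Depth was 17039634 to 20385767 recovered reads per library. HUH7 CTRL replicate 1 stood apart from the rest of its group (chi-square per degree of freedom 17.6 and 19.4, against 3.5 between those), as did DLD1 CTRL replicate 3 (7.25 and 9.40, against 3.27). The median SD of a gene between replicates was 0.07 in DLD1 KDSR KO, 0.10 in DLD1 CTRL, 0.07 in HUH7 KDSR KO and 0.14 in HUH7 CTRL on the log2 scale. Hepatocyte markers matched the labels. The 17 genes summed to 42.1 to 50.1 TPM in the DLD1 libraries, with 2 of 17 at 1 TPM or more. In the HUH7 libraries they summed to 22990 to 24940 TPM, with 17 of 17. A list of 12 intestinal epithelium genes summed to 517 to 532 TPM in DLD1 KDSR KO and 611 to 644 TPM in DLD1 CTRL, with 9 of 12 at 1 TPM or more; its part in the results was not tested. In HUH7 the same list summed to 193 to 207 TPM in KDSR KO and 202 to 215 TPM in CTRL, with 7 of 12 at 1 TPM or more. VIL1, FABP1 and CDHR5 of this list were higher in HUH7, and the other members were higher in DLD1. VIL1 averaged 11.4 TPM in DLD1 KDSR KO and 16.1 TPM in DLD1 CTRL. In HUH7 it averaged 109.5 TPM in KDSR KO and 111.3 TPM in CTRL. A list of 6 fibroblast genes summed to 0.777 to 1.64 TPM in DLD1 and 464 to 610 TPM in HUH7, where 5 of 6 reached 1 TPM; its part in the results was not tested either.

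KDSR mRNA stood lower with the KDSR guide in both lines, at 0.647 of CTRL in DLD1 and 0.628 of CTRL in HUH7. It stood at 19.5, 19.4 and 18.7 TPM in DLD1 KDSR KO, against 29.7, 32.2 and 27.2 TPM in DLD1 CTRL. In HUH7 it stood at 3.67, 4.01 and 3.21 TPM in KDSR KO, against 5.08, 6.54 and 5.74 TPM in CTRL. The groups did not overlap in either line, and HUH7 began from a lower level. KDSR lies on chromosome 18 from 63327726 to 63367510 (hg38, minus strand). Its log2 change was -0.60 in DLD1 (adjusted p = 0.000749) and -0.55 in HUH7 (adjusted p = 0.159). The difference between the lines was -0.05, with a 95% interval of -0.33 to 0.23 and a two-sided exact permutation p of 0.895, where 0.005 is the smallest p the design allows. In TPM the change in DLD1 minus that in HUH7 was -8.30 (exact permutation p = 0.1). Guide-made insertions and deletions need not lower the mRNA, so the level does not measure the edited share, and in bulk RNA fewer cells with the transcript and less of it per cell cannot be told apart.

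Some genes changed differently with the knockout in the lines. Of the 13412 genes, limma called 351 (2.62%) for the difference at an adjusted p under 0.05, of which 215 (1.6%) were more positive in DLD1 and 136 (1.01%) more negative; 2451 had an unadjusted p under 0.05. Within DLD1, 2354 genes (17.6%) were called, 714 higher (5.32%) and 1640 lower (12.2%) in KDSR KO. Within HUH7, limma called 0 genes (0%) and voom on the recovered reads also 0, while 1479 and 1898 genes had an unadjusted p under 0.05 in those fits. Of the 351 genes, 338 (96.3%) were also called in DLD1, and these made up 14.36% of the DLD1 calls; the comparisons share the DLD1 libraries. The median difference over all genes was -0.09, from medians of -0.07 in DLD1 and 0.02 in HUH7.

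Most called differences were changes in DLD1 that HUH7 did not match in size. Among the 215 more positive genes, the change was larger in DLD1 for 214. Of those 214, HUH7 had the same sign for 87 and the opposite sign for 127. Among the 136 more negative genes it was larger in DLD1 for 124, with the same sign for 34 and the opposite for 90. Over all 13412 genes, the change was larger in DLD1 with the same sign for 4979 and with the opposite sign for 3284. It was larger in HUH7 for 5149. A call for the difference itself favours opposite signs, so these counts follow in part from the calling. The SD of changes across all genes was 0.28 in DLD1 and 0.21 in HUH7. Signs in HUH7 rest on small changes: the 215 had a median change of 0.56 in DLD1 and -0.04 in HUH7, and the 136 had -0.36 and 0.06. Among called genes the more positive differences were also larger, with 48 of 215 above 1 and 4 of 136 below -1. The number called was 219 without DLD1 KDSR KO replicate 1 and 199 without HUH7 KDSR KO replicate 2, and 1201 (910 higher, 291 lower) after removal of a GC trend. It was 443 (339 higher, 104 lower) with median ratio scaling and 452 (377 higher, 75 lower) with quantile normalization, so the share called higher depended on the scaling. The balance within DLD1 did too, with 1052 higher and 1090 lower under median ratio scaling, 1135 higher and 840 lower under quantile normalization, and 1775 higher and 1162 lower after removal of a GC trend.

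**Figure D1:**
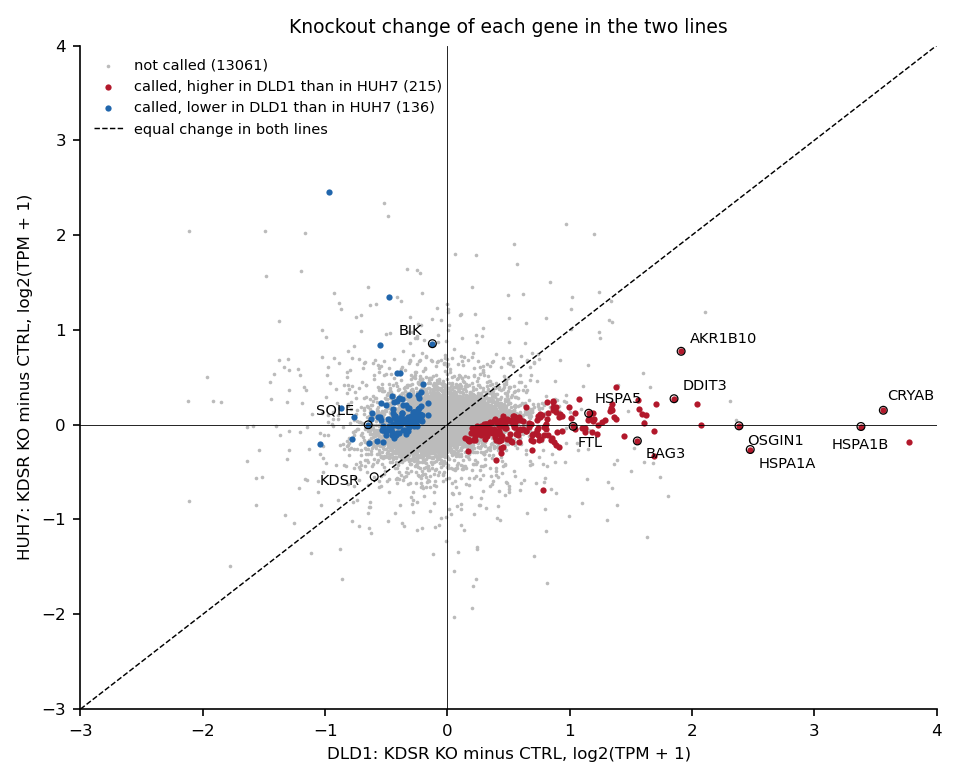
Each point is 1 of the 13412 genes, with its change in DLD1 (x axis) and in HUH7 (y axis), KDSR KO minus CTRL in log2(TPM + 1). The 215 genes called higher and the 136 called lower lie mostly along the horizontal axis, while KDSR lies near the dashed line of equal change.

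Over all genes, 2.62% were called for the difference, 1.6% more positive and 1.01% more negative. Within DLD1, 5.32% of all genes were called higher and 12.2% lower. Each list below is to be read beside these shares. Some called genes belong to overlapping lists and are counted in each. SQSTM1 is in the NRF2 and autophagy lists, and HMOX1 in the NRF2 and iron lists. SESN2 is in the ATF4 and CHOP list and the p53 list. VEGFA is in the ATF4 and CHOP list and the hypoxia list. Of the 30 gene lists, cytosolic heat shock proteins had the highest share of called members. Of 32 tested members of this list, 16 had a more positive change in DLD1 and 0 a more negative one (50%, against 2.62% of all genes), and the median difference was 0.37. Within DLD1, limma called 24 members higher in KDSR KO and 0 lower, and 28 changes were positive and 4 negative. In HUH7 the KDSR KO libraries lay above the range of CTRL for 4 of the 32 members and below it for 7, against 6.76% and 11% of all genes, with a median change of 0.02. Over the alternatives other than the replicate block and the stricter test, 15 to 25 members were called higher and 0 lower.

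HSPA1B, an inducible HSP70 chaperone, showed the largest difference among the genes named by rule. It reached 1509, 1438 and 1391 TPM in DLD1 KDSR KO, against 133, 131 and 150.3 TPM in DLD1 CTRL. In HUH7 it had 61.5, 65.7 and 56.4 TPM in KDSR KO, against 63.5, 63.5 and 58.8 TPM in CTRL. All DLD1 knockout libraries were far above their controls, while the HUH7 groups overlapped. The fold was 10.5 in DLD1 and 0.988 in HUH7, and the log2 difference was 3.40 ± 0.14 (standard error; adjusted p = 1.74e-09). Its near copy HSPA1A stood at 15.4, 14.8 and 20.7 TPM in DLD1 KDSR KO and 2.11, 1.81 and 2.72 TPM in DLD1 CTRL, and at 133, 139.8 and 121 TPM in HUH7 KDSR KO and 170.5, 148 and 154 TPM in HUH7 CTRL. It was higher in every DLD1 knockout library and lower in every HUH7 one, for a difference of 2.74 ± 0.17 (adjusted p = 1.58e-07). The transcripts share 71.3% to 71.4% of their 50-base windows, so reads could be divided between the genes in either way. Their sum does not depend on that division if shared reads were counted, which is not known here. If such reads were left out, the sum misses them. In DLD1 the sum was 1463 ± 56.9 TPM in KDSR KO and 140 ± 11.04 TPM in CTRL (SD, n = 3 each). In HUH7 it was 192 ± 14.4 TPM in KDSR KO and 219 ± 12.8 TPM in CTRL (SD, n = 3 each).

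The promoters of 4 genes that were called more positive in DLD1 are printed to show where motif matches lie, and were chosen after the matches were seen. The windows of OSGIN1, DNAJB1, BAG3, DDIT3 and DNAJB4, whose differences were larger than that of HERPUD1, hold no match to the 6 motifs searched. Those of OSGIN1, DNAJB1 and DDIT3 lie inside the annotated genes, and promoters at other starts were not searched. A single RefSeq start per gene was used. For 55 of the 65 named genes with a promoter sequence, the first 20 bases from that start stood in a GENCODE transcript start. Each window is the 250 bases before the RefSeq gene start (GRCh38.p14), 5′ to 3′ on the gene's strand. Capitals mark matches to searched motifs. HSPA1B is at chr6:31827488-31827737 (plus strand), HSPA1A at chr6:31815293-31815542 (plus strand), ZFAND2A at chr7:1160197-1160446 (minus strand) and HERPUD1 at chr16:56931892-56932141 (plus strand).
HSPA1B: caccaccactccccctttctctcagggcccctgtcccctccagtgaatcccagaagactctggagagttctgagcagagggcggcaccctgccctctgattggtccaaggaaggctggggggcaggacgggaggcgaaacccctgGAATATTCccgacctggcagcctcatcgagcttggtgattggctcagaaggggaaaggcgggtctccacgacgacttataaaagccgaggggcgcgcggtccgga
HSPA1A: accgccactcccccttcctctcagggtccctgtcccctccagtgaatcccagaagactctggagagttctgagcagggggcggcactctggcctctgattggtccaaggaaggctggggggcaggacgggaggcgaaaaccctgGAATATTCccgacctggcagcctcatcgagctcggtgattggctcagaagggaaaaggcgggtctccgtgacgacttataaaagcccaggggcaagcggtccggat
ZFAND2A: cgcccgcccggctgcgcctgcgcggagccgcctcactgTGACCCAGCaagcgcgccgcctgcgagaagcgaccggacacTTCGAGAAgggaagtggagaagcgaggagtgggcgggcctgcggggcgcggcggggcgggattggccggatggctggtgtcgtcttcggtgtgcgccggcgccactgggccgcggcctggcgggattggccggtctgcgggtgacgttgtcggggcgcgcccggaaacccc
HERPUD1: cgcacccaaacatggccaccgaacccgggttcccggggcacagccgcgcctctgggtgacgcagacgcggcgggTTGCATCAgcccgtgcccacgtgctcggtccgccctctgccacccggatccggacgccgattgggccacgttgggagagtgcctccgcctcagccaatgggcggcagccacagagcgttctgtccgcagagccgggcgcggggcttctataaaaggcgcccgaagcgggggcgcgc

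The HSPA1A and HSPA1B windows hold GAANNTTC, the facing order of heat shock element units, starting 106 and 105 bases before the gene start. This motif was added to the search after the sequences had been seen. Both strands were searched; GAANNTTC and TTCNNGAA can share a unit where 3 stand in a row. GAANNTTC was found in 9 of 28 heat shock promoters (32.1%), against 3.62% of the 8884 tested genes with a promoter in the table. Over all called genes it stood in 7.69% of promoters of those more positive in DLD1 and 7.37% of those more negative. TTCNNGAA, the other order, was found in 5 of 28 (17.9%), against 4.95%, and lies 171 bases before the start of ZFAND2A. That window also holds TGACNNNGC, the core of the antioxidant response element, which occurs in 12.3% of tested promoters. HERPUD1 holds TGATGNAA, a composite CHOP and ATF4 element, on its other strand; 1.16% of tested promoters hold it, and 3 of 28 in the ATF4 and CHOP list (10.7%). A match describes letters in these windows and no binding was measured.

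Other chaperone and cochaperone genes followed the same pattern as HSPA1B. DNAJB1, an HSP40 partner of HSP70, had 995, 996 and 996 TPM in DLD1 KDSR KO and 289.5, 316 and 321 TPM in DLD1 CTRL, with 213, 220.1 and 225 TPM in HUH7 KDSR KO and 225, 229 and 235 TPM in HUH7 CTRL. BAG3, which links HSP70 to autophagy, had 1003, 976 and 974 TPM in DLD1 KDSR KO and 318, 327 and 361 TPM in DLD1 CTRL, with 133, 137 and 142 TPM in HUH7 KDSR KO and 166, 159 and 140.3 TPM in HUH7 CTRL. In both genes the DLD1 groups were far apart and the HUH7 knockout mean was slightly below its control. Their log2 differences were 1.75 (DNAJB1, adjusted p = 1.74e-09) and 1.72 (BAG3, adjusted p = 2.08e-08). ZFAND2A, a proteasome-associated zinc finger protein, rose 4.36-fold in DLD1, and its HUH7 means were 96.9 TPM in KDSR KO and 96.95 TPM in CTRL (difference 2.08, adjusted p = 1.26e-08). DNAJB4, another HSP40 gene, had a difference of 1.40 (adjusted p = 0.00303), and 1.63 without HUH7 CTRL replicate 1, which was low for it.

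HSPA8, HSP90AA1 and HSPH1 had smaller differences than HSPA1B. HSPA8, the constitutive HSP70, averaged 5421 ± 72.6 TPM in DLD1 KDSR KO and 3408 ± 48.9 TPM in DLD1 CTRL, and 2213 ± 61.01 TPM in HUH7 KDSR KO and 2252 ± 93.7 TPM in HUH7 CTRL (SD, n = 3 each; difference 0.69, limma adjusted p = 9.7e-07). HSP90AA1 had a difference of 0.68 and HSPH1, an HSP110 cochaperone, had one of 1.08. HSPA8, HSP90AA1 and HSPH1 lie outside the rule for named genes and were chosen after their values were seen, as were the next 2. CRYAB, a small heat shock protein, had 11.9, 11.9 and 9.59 TPM in DLD1 KDSR KO, against 0.0641, 0 and 0 TPM in DLD1 CTRL; in HUH7 it had 1.82, 1.55 and 2.97 TPM in KDSR KO, against 1.97, 2.10 and 1.26 TPM in CTRL. No fold is given for it in DLD1 because the control is at or near 0. CRYAB passed the limit of 1 TPM in DLD1 only through KDSR KO. HSPA6, another inducible HSP70, had 286, 306 and 286 TPM in DLD1 KDSR KO and 1.72, 3.14 and 2.85 TPM in DLD1 CTRL, but at most 0.332 TPM in any HUH7 library, so it was not among the genes compared.

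**Figure D2:**
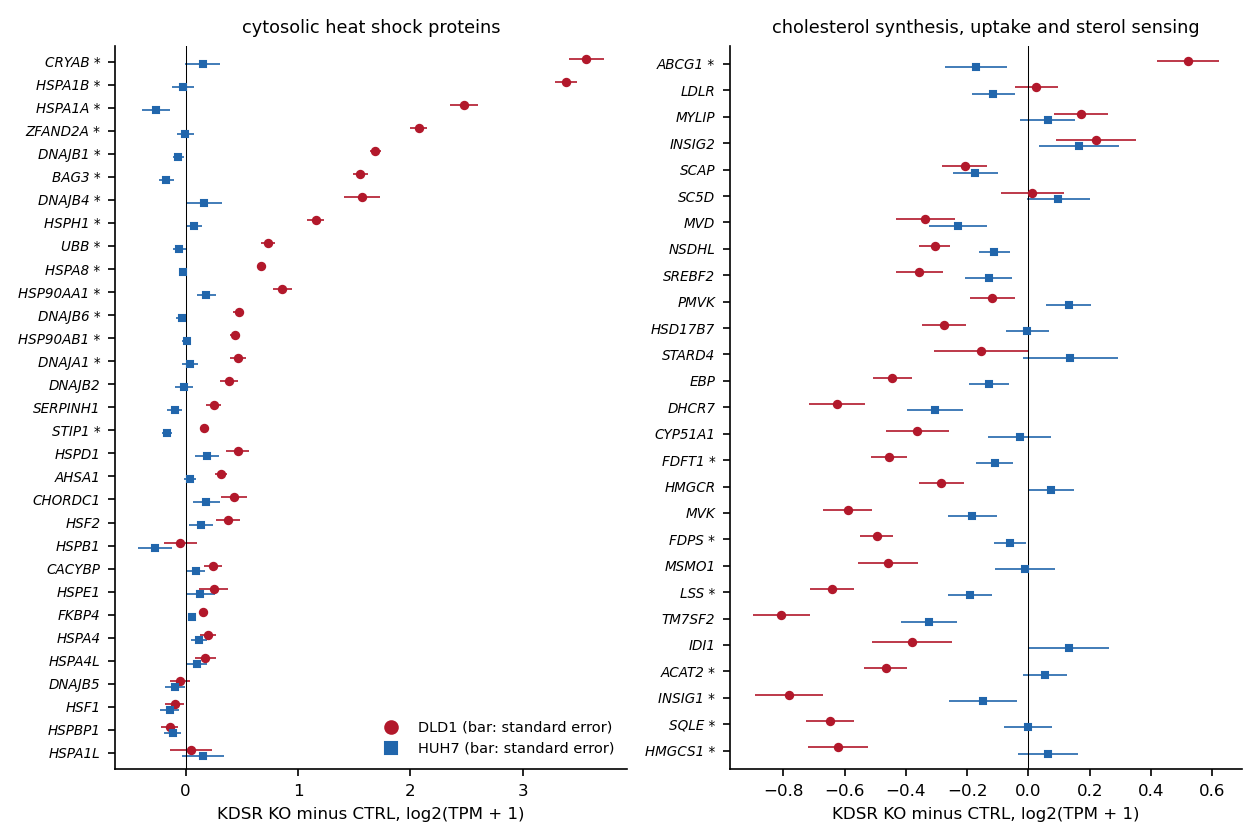
Change of the tested members of the heat shock list (left) and the cholesterol list (right), without those not reported here, KDSR KO minus CTRL in log2(TPM + 1), with standard error bars; circles are DLD1, squares HUH7, and an asterisk marks a called difference. Heat shock genes spread to the right in DLD1 and stay near 0 in HUH7, and most cholesterol genes lie to the left in DLD1.

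Some genes of protein folding and disposal in the endoplasmic reticulum rose in DLD1 more than in HUH7. Of 38 chaperone and ATF6 or XBP1 target genes, 5 were called more positive in DLD1 and 0 more negative (13.16%, median difference 0.12). Within DLD1, limma called 14 higher in KDSR KO and 1 lower, and 34 changes were positive and 4 negative. HSPA5, the HSP70 of the endoplasmic reticulum, had 1909, 1870.1 and 1946 TPM in DLD1 KDSR KO and 829, 915 and 828 TPM in DLD1 CTRL, with 1021, 1095 and 1055 TPM in HUH7 KDSR KO and 886, 1045 and 992 TPM in HUH7 CTRL. The DLD1 groups were well apart and the HUH7 groups overlapped, for a difference of 1.03 ± 0.08 (adjusted p = 1.6e-06). HSP90B1, the HSP90 of this compartment, had a difference of 0.49 (adjusted p = 0.00717) and PDIA4, a disulfide isomerase, one of 0.34 (adjusted p = 0.0103). HYOU1, an exchange factor of HSPA5, stood 1.401-fold of CTRL in DLD1 and 0.898-fold in HUH7, with the knockout libraries above every control in DLD1 and below every control in HUH7 (difference 0.64, adjusted p = 0.000274).

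Of 22 genes of endoplasmic reticulum associated degradation, 5 were called more positive in DLD1 and 0 more negative (22.73%, median difference 0.14). HERPUD1, a scaffold of the degradation complex, had 141, 129 and 132 TPM in DLD1 KDSR KO and 58.3, 60.1 and 55.1 TPM in DLD1 CTRL, with 56.6, 55.7 and 58.5 TPM in HUH7 KDSR KO and 52.9, 56.2 and 54.2 TPM in HUH7 CTRL. Only the DLD1 groups separated, and the difference was 1.14 ± 0.07 (adjusted p = 4.25e-08). The ubiquitin ligase SYVN1 had a difference of 0.58 (adjusted p = 0.00333), and NPLOC4 and UFD1, partners of the extraction ATPase VCP, had 0.50 (adjusted p = 0.00215) and 0.44 (adjusted p = 0.00493). Of 32 genes of transport from the endoplasmic reticulum to the Golgi, 2 were called (6.25%, against 2.62% of all genes). They were SEC24D, a COPII coat subunit (0.36, limma adjusted p = 0.017), and SURF4, a cargo receptor (0.29, limma adjusted p = 0.021). That count ranged from 0 to 4 when single libraries were left out, and SURF4 lost its call in 6 of those 12 fits.

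The ATF4 and CHOP branch also separated the lines. Of 34 tested targets, 10 were called more positive in DLD1 and 0 more negative (29.41%, median difference 0.24). Within DLD1, limma called 19 higher in KDSR KO and 0 lower, and 31 changes were positive and 3 negative. In HUH7 the KDSR KO libraries lay above the range of CTRL for 10 of the 34 and below it for 2, against 6.76% and 11% of all genes, although none was called. DDIT3, which encodes CHOP, had 95.8, 86.3 and 90.3 TPM in DLD1 KDSR KO and 25.7, 23.1 and 24.4 TPM in DLD1 CTRL, with 34.3, 38.04 and 33.9 TPM in HUH7 KDSR KO and 27.3, 29.7 and 30.3 TPM in HUH7 CTRL. Knockout libraries were above all controls in both lines, but the fold was 3.72 in DLD1 and 1.22 in HUH7 (difference 1.58 ± 0.09, adjusted p = 3.14e-08). ATF3, a stress transcription factor, had a difference of 1.52 (adjusted p = 5.37e-08) and PPP1R15A, which brings a phosphatase to eIF2alpha, one of 1.18 (adjusted p = 1.33e-05). DDIT4, an inhibitor of mTORC1 signalling, rose 2.35-fold in DLD1, against a HUH7 fold of 0.932 (difference 1.32, adjusted p = 6.2e-05). Of 20 cytosolic aminoacyl-tRNA synthetase genes, 0 were called for the difference by limma, and the median difference was 0.03.

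Most proteasome subunits rose in DLD1. All 33 tested members had a positive change there, 19 of them called, and the median change was 0.24, against 0.03 in HUH7. For the difference between lines, 7 were called more positive and 0 more negative (21.21%, median 0.21). The count ranged from 2 to 12 when single libraries were left out. PSMC4, an ATPase of the regulatory particle, had 367, 369 and 379 TPM in DLD1 KDSR KO and 227, 237 and 248 TPM in DLD1 CTRL, with 443, 443 and 453 TPM in HUH7 KDSR KO and 469, 482 and 450.2 TPM in HUH7 CTRL (difference 0.71 ± 0.06, adjusted p = 4.43e-06). The next members were smaller, with 0.36 for PSMC1, 0.33 for PSMD11 and 0.31 for PSMB2.

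Targets of NRF2 gave 10 of 29 members more positive in DLD1 and 1 more negative (37.93%, median difference 0.22). OSGIN1, an oxidative stress gene, had 61.3, 54.6 and 60.3 TPM in DLD1 KDSR KO and 9.78, 10.1 and 11.4 TPM in DLD1 CTRL, with 41.2, 37.4 and 42.6 TPM in HUH7 KDSR KO and 44.1, 36.7 and 41.6 TPM in HUH7 CTRL. The DLD1 knockout thus stood above both HUH7 groups, which overlapped (difference 2.40 ± 0.12, adjusted p = 1.26e-08). AKR1B10, an aldo-keto reductase, stood higher in the KDSR KO libraries of both lines, with 8.74, 8.76 and 9.62 TPM in DLD1 KDSR KO and 1.45, 2.13 and 1.47 TPM in DLD1 CTRL, and 16.8, 13.7 and 15.1 TPM in HUH7 KDSR KO and 7.64, 7.76 and 10.1 TPM in HUH7 CTRL. The log2 change was 1.91 in DLD1 (adjusted p = 5.23e-08) and 0.77 in HUH7 (adjusted p = 0.134, not called), and the difference was 1.14 (adjusted p = 0.0013). The autophagy receptor SQSTM1 rose 2.02-fold in DLD1, against a HUH7 fold of 1.05 (difference 0.95, adjusted p = 1.21e-05). MAFG, a small MAF partner of NRF2, had a difference of 0.85 (adjusted p = 1.74e-05).

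Iron storage separated the lines through FTL, the ferritin light chain, with 9889, 9510.4 and 8703 TPM in DLD1 KDSR KO and 4397, 4629 and 4739 TPM in DLD1 CTRL, and 15639, 15862 and 15994 TPM in HUH7 KDSR KO and 16072, 16448 and 15563 TPM in HUH7 CTRL. The difference was 1.05 ± 0.09 (adjusted p = 2.93e-06), and the HUH7 level stayed above that of both DLD1 groups. HMOX1, heme oxygenase 1, had a difference of 0.82 (adjusted p = 0.0125). These were the 2 called members of 13 in the iron list (15.38%, against 2.62% of all genes), whose median difference was -0.01.

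**Figure D3:**
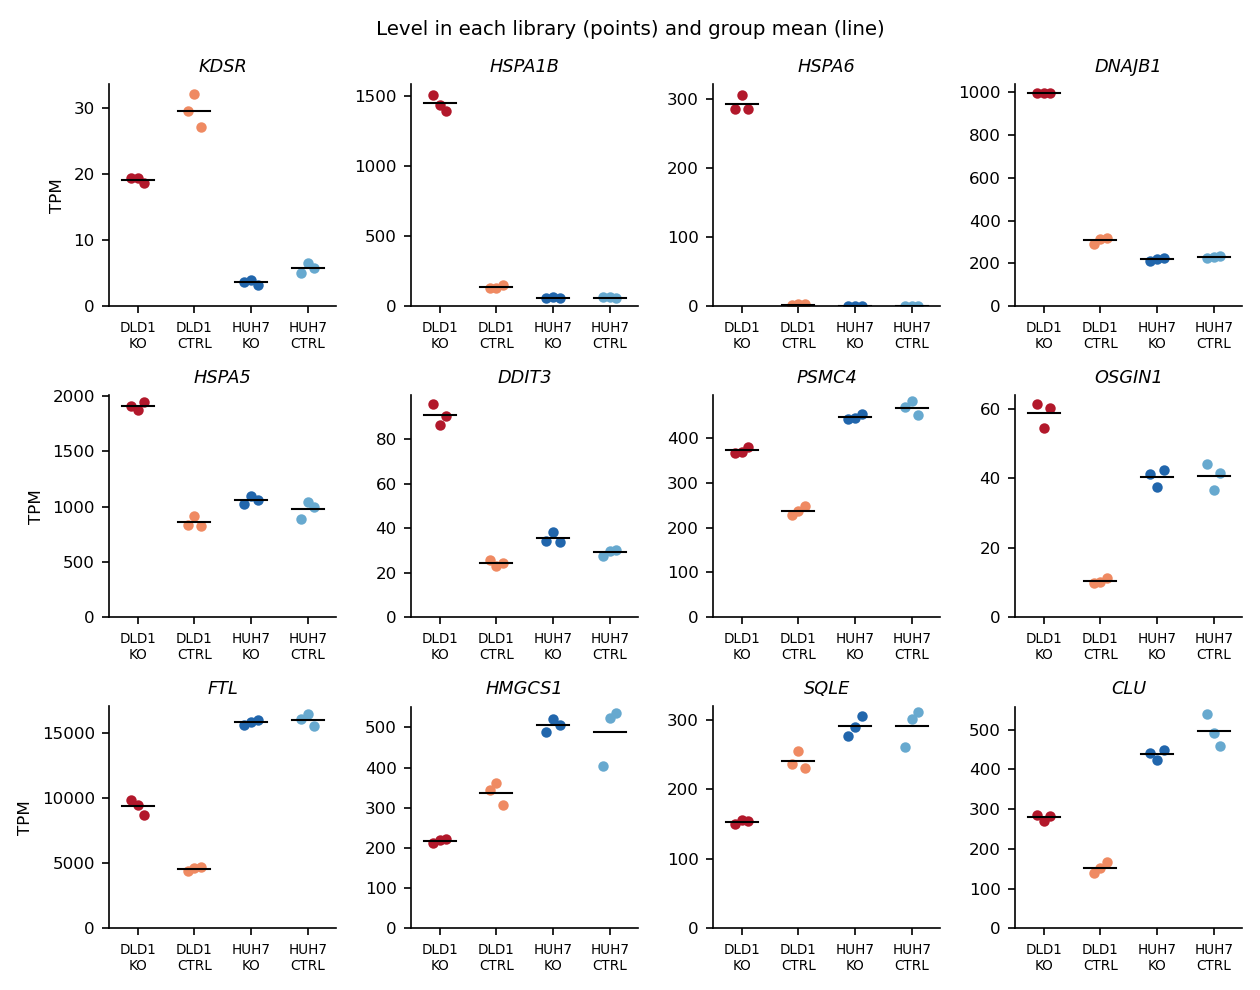
TPM of 12 genes in each library (points) with the group mean (line), on axes from 0, for DLD1 KDSR KO, DLD1 CTRL, HUH7 KDSR KO and HUH7 CTRL. For HSPA1B the DLD1 KDSR KO libraries sit at 1391 to 1509 TPM, above every other library; HSPA6 was outside the genes compared.

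Cholesterol genes formed the main group in the other direction. Of 29 tested members, 9 had a more negative change in DLD1 and 1 a more positive one (34.48%, median difference -0.33). Within DLD1, limma called 20 lower in KDSR KO and 1 higher, and 24 changes were negative and 5 positive. In HUH7 the KDSR KO libraries lay below the range of CTRL for 12 of the 29 and above it for 1. Over all genes these shares were 11% and 6.76%. The median change in HUH7 was -0.06. SQLE, squalene epoxidase, had 149.7, 156 and 154 TPM in DLD1 KDSR KO and 237, 255 and 231 TPM in DLD1 CTRL, with 276, 290.2 and 305 TPM in HUH7 KDSR KO and 261, 302 and 311 TPM in HUH7 CTRL. The DLD1 groups did not overlap and the HUH7 groups did (difference -0.65 ± 0.11, adjusted p = 0.00426). HMGCS1, which makes HMG-CoA, had 212, 220.3 and 222 TPM in DLD1 KDSR KO and 343, 361 and 307 TPM in DLD1 CTRL, with 489.6, 522 and 506 TPM in HUH7 KDSR KO and 403, 524 and 536 TPM in HUH7 CTRL. Its difference was -0.69 (adjusted p = 0.0149), and -0.55 without HUH7 CTRL replicate 1, the lowest HUH7 library for this gene.

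FDPS and ACAT2, enzymes of isoprenoid and acetoacetyl-CoA synthesis, had differences of -0.44 (adjusted p = 0.00486) and -0.52 (adjusted p = 0.0104). INSIG1, which holds SREBP in the endoplasmic reticulum, had a difference of -0.63 (adjusted p = 0.0469) and lost its call in all 12 fits that left out 1 library. Without single libraries the number called lower in the list was 5 to 8. The exception was ABCG1, a sterol exporter named after its value was seen, with a difference of 0.69 from means of 1.46 TPM in DLD1 KDSR KO, 0.715 TPM in DLD1 CTRL, 1.64 TPM in HUH7 KDSR KO and 1.96 TPM in HUH7 CTRL. ABCG1 passed the limit of 1 TPM in DLD1 only through KDSR KO. Of 18 fatty acid synthesis genes, 1 was called for the difference (5.556%), the desaturase SCD (-0.39, limma adjusted p = 0.0144), and the median difference was -0.20. Within DLD1, 11 of these 18 genes were called lower in KDSR KO and 1 higher, against 12.2% and 5.32% of all genes.

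**Figure D4:**
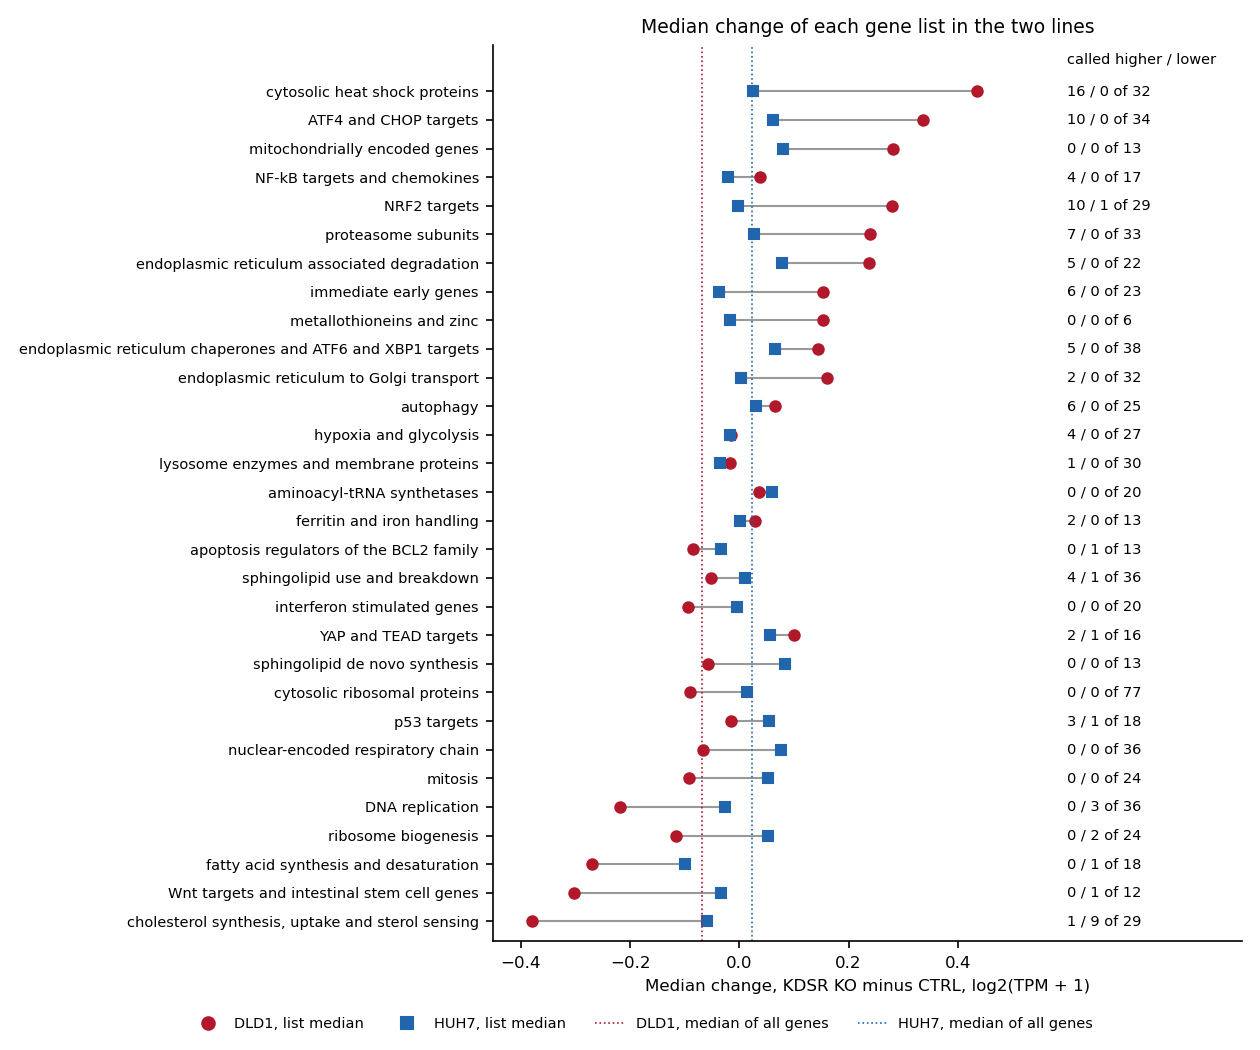
Median change of each gene list in DLD1 (circles) and HUH7 (squares), KDSR KO minus CTRL in log2(TPM + 1), ordered by the median difference between lines, with the number called higher and lower at the right. The heat shock list is at the top with 16 of 32 called higher, and the cholesterol list at the bottom with 9 of 29 called lower.

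Signalling and early response genes added single large differences. Of 23 immediate early genes, 6 were called more positive in DLD1 and 0 more negative (26.09%, median difference 0.13). JUN, an AP-1 subunit, had 127, 128 and 125 TPM in DLD1 KDSR KO and 37.6, 44.6 and 41.1 TPM in DLD1 CTRL, with 145, 146 and 141 TPM in HUH7 KDSR KO and 152, 135 and 139 TPM in HUH7 CTRL (difference 1.59 ± 0.12, adjusted p = 1.23e-06). DUSP1, a MAP kinase phosphatase, had a difference of 1.17 (adjusted p = 3.41e-05), MAFF, a small MAF factor, one of 1.14 (adjusted p = 9.63e-05) and FOSL2, an AP-1 subunit, one of 0.42 (adjusted p = 0.00209). Of 17 NF-kB targets and chemokines, 4 were called more positive and 0 more negative (23.53%, against 2.62% of all genes). CXCL8, a neutrophil chemokine, had 14.6, 16.0 and 17.9 TPM in DLD1 KDSR KO and 5.99, 5.51 and 3.28 TPM in DLD1 CTRL. Its HUH7 values were 193, 214 and 222 TPM in KDSR KO and 136, 206 and 192 TPM in CTRL. The difference for CXCL8 was 1.30 (limma adjusted p = 0.00672). The cytokine IL32 had a difference of 0.79 (adjusted p = 0.00105), the adhesion molecule ICAM1 0.52 (adjusted p = 0.0125) and the NF-kB subunit NFKB2 0.49 (adjusted p = 0.0142). Of 16 YAP and TEAD targets, 2 were more positive and 1 more negative (18.75%), with a median difference of -0.06. ANKRD1, the largest of them at 1.82 (adjusted p = 2.96e-05), averaged 34.2 TPM in DLD1 KDSR KO and 7.59 TPM in DLD1 CTRL, and 682 TPM in HUH7 KDSR KO and 588 TPM in HUH7 CTRL. CTGF, a matricellular protein, had 0.52 (adjusted p = 0.00864), and TGFB2, a growth factor, -0.37 (adjusted p = 0.0317), a call lost in 8 of the 12 fits without 1 library.

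Autophagy, hypoxia and p53 target lists each held a few calls. Of 25 autophagy genes, 6 were called more positive and 0 more negative (24%, median difference 0.06), among them GABARAPL1 (0.69, adjusted p = 7.02e-05) and MAP1LC3B (0.68, adjusted p = 0.000963), both ATG8 family proteins of the autophagosome, and the receptor CALCOCO2 (0.53, adjusted p = 0.00481). Of 27 hypoxia and glycolysis genes, 4 were more positive and 0 more negative (14.81%, against 2.62% of all genes). NDRG1, a stress-responsive gene, had 31.5, 30.98 and 32.7 TPM in DLD1 KDSR KO and 13.9, 14.1 and 14.01 TPM in DLD1 CTRL, with 13.4, 14.1 and 13.7 TPM in HUH7 KDSR KO and 14.6, 13.9 and 13.97 TPM in HUH7 CTRL (difference 1.16 ± 0.06, adjusted p = 9.83e-09). ADM, a vasodilator peptide, had 0.71 (adjusted p = 0.00526), the glucose transporter SLC2A1 0.45 (adjusted p = 0.00107) and the angiogenic factor VEGFA 0.48 (adjusted p = 0.00445). Of 18 p53 targets, 3 were more positive and 1 more negative (22.22%, against 2.62% of all genes). CDKN1A, a CDK inhibitor, had 0.80 (limma adjusted p = 0.000954) and SESN2 had 1.01 (limma adjusted p = 0.000274). GADD45A had 0.64 (limma adjusted p = 0.00229). The DNA repair gene DDB2 had -0.50 (limma adjusted p = 0.0257), a call lost in 8 of the 12 fits without 1 library.

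The lists of cell division and ribosome production held 0 to 3 genes called for the difference each, all more negative. Over all genes, 2.62% were called and 1.01% were called more negative. Within DLD1, limma called 17 of 36 replication, 5 of 24 mitosis and 5 of 24 ribosome biogenesis genes lower in KDSR KO. It called 0 of each list higher there, against 12.2% lower and 5.32% higher over all genes. Limma called 0 of 24 mitosis genes; all 24 had a negative difference as fitted, as did 9002 of the 13412 genes, and their median of -0.16, against -0.09 for all genes, ran from -0.20 to -0.07 over the alternatives. Of 36 replication genes, 3 were called more negative and 0 more positive (8.333%, median -0.16), among them MCM3, a helicase subunit (-0.27, adjusted p = 0.00672); GINS2 and FEN1 lost their calls in 7 and 6 of the 12 fits without 1 library. Of 24 ribosome biogenesis genes, 2 were called more negative and 0 more positive (8.333%). These were FBL (-0.26, limma adjusted p = 0.0256) and RRS1 (-0.34, limma adjusted p = 0.0325), calls lost in 7 and 8 of those fits. Of 12 Wnt targets and intestinal stem cell genes, 1 was called (8.333%). It was TNFRSF19, a receptor of the TNF family (-0.70, limma adjusted p = 0.014). Within DLD1, 8 of these 12 genes were called lower in KDSR KO and 0 higher. Limma called 0 of 77 cytosolic ribosomal proteins, 0 of 36 nuclear-encoded respiratory chain genes, 0 of 20 interferon stimulated genes, 0 of 6 metallothionein and zinc genes and 0 of 13 mitochondrially encoded genes. The last list had a median difference of 0.24, which ran from -0.09 to 0.44 over the alternatives. Mitochondrial transcripts took 8.35% to 9.59% of TPM in DLD1 KDSR KO, 6.32% to 8.96% in DLD1 CTRL, 8.98% to 10.6% in HUH7 KDSR KO and 7.07% to 12.5% in HUH7 CTRL.

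None of the 13 tested genes of de novo synthesis was called for the difference by limma, and the differences ran from -0.47 to 0.05. Within DLD1, limma called 3 of them lower in KDSR KO, namely KDSR, SPTLC3 and SPTSSB, and 9 changes were negative and 4 positive. SPTLC3 and SPTSSB are subunits of serine palmitoyltransferase. Of 36 genes that use or break down ceramide and its products, 4 were called more positive and 1 more negative (13.89%, against 2.62% of all genes). The called genes SPHK1 and CYP4F3 averaged 0.711 and 0.879 TPM in DLD1 CTRL. They thus passed the limit of 1 TPM in DLD1 only through KDSR KO. SPHK1, which makes sphingosine-1-phosphate, had 1.901, 1.64 and 2.05 TPM in DLD1 KDSR KO and 0.616, 0.621 and 0.897 TPM in DLD1 CTRL, with 29.2, 24.2 and 26.1 TPM in HUH7 KDSR KO and 31.97, 27.6 and 26.2 TPM in HUH7 CTRL (difference 0.85, adjusted p = 0.00215). CYP4F3, a cytochrome P450 omega-hydroxylase, had 5.53, 4.88 and 4.89 TPM in DLD1 KDSR KO and 0.775, 1.101 and 0.7599 TPM in DLD1 CTRL, with 12.9, 12.2 and 10.5 TPM in HUH7 KDSR KO and 9.03, 9.52 and 11.8 TPM in HUH7 CTRL (difference 1.49, adjusted p = 2e-05). CYP4F genes are close paralogs, and how reads shared by several genes were counted is not known here, so the value for this gene is uncertain. The lysosomal genes PSAP, the precursor of saposins, and GLA, an alpha-galactosidase, had differences of 0.52 (adjusted p = 0.000941) and 0.49 (adjusted p = 0.0103), and CERK, ceramide kinase, one of -0.36 (adjusted p = 0.0146). Leaving out HUH7 KDSR KO replicate 2 ended the call of CERK.

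Some genes stood outside the control range in opposite directions in both lines, which held for 67 of the 351 called genes and 194 of all genes compared. The same direction in both lines held for 24 of the 351 and 922 of all genes compared. A call for the difference itself favours opposite directions. Over all genes, the KDSR KO libraries lay on 1 side of the range of CTRL for 40.6% in DLD1 (12.7% above, 27.9% below) and 17.8% in HUH7. CLU, a secreted chaperone, had 284, 270.2 and 283 TPM in DLD1 KDSR KO and 139, 151 and 168 TPM in DLD1 CTRL, with 442, 424 and 448 TPM in HUH7 KDSR KO and 538, 492 and 459 TPM in HUH7 CTRL. GPX3, a secreted glutathione peroxidase, had 51.5, 49.4 and 45.2 TPM in DLD1 KDSR KO and 25.1, 24.9 and 30.04 TPM in DLD1 CTRL, with 154, 147 and 148 TPM in HUH7 KDSR KO and 171, 169 and 161 TPM in HUH7 CTRL. Both rose in DLD1, while their HUH7 decreases were not called; the differences were 1.05 (CLU, adjusted p = 3.92e-05) and 1.005 (GPX3, adjusted p = 1.21e-05). ABHD4, a lipid hydrolase, behaved alike, at 0.92 (adjusted p = 2.14e-05).

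The change was larger in HUH7 for 13 of the 351 called genes, 1 more positive and 12 more negative. BIK, a BH3-only protein of the BCL2 family, had 95.96, 90.9 and 84.2 TPM in DLD1 KDSR KO and 100.2, 99.5 and 95.3 TPM in DLD1 CTRL, with 2.06, 2.27 and 2.82 TPM in HUH7 KDSR KO and 0.608, 1.46 and 0.633 TPM in HUH7 CTRL. The HUH7 knockout libraries were above all their controls at a low level (difference -0.98 ± 0.20, adjusted p = 0.015). BIK averaged 0.901 TPM in HUH7 CTRL, so it passed the limit of 1 TPM in HUH7 only through KDSR KO. JMJD4, a lysyl hydroxylase, had a HUH7 change of 0.32 and a difference of -0.63 (adjusted p = 0.0266). FAM104B, NOSTRIN and NCKAP5L had HUH7 changes of 0.31, 0.22 and -0.28. All of these calls but that of BIK were lost in 6 to 12 of the 12 fits that left out 1 library.

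Among the most negative differences were genes outside the lists. METTL7A, a lipid droplet protein of the methyltransferase family, had 15.4, 15.4 and 13.4 TPM in DLD1 KDSR KO and 25.9, 25.4 and 25.4 TPM in DLD1 CTRL, with 31.4, 29.9 and 32.02 TPM in HUH7 KDSR KO and 28.05, 30.9 and 29.03 TPM in HUH7 CTRL (difference -0.84 ± 0.09, adjusted p = 6.97e-05). GXYLT2, a xylosyltransferase, had -0.64 (adjusted p = 0.0104) and TSPAN12, a tetraspanin of Norrin signalling, -0.61 (adjusted p = 0.0128). The noncoding SNHG10 (-0.77) and the potassium channel KCNJ8 (-0.57) lost their calls in 5 and 10 of the 12 fits without 1 library.

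**Figure D5:**
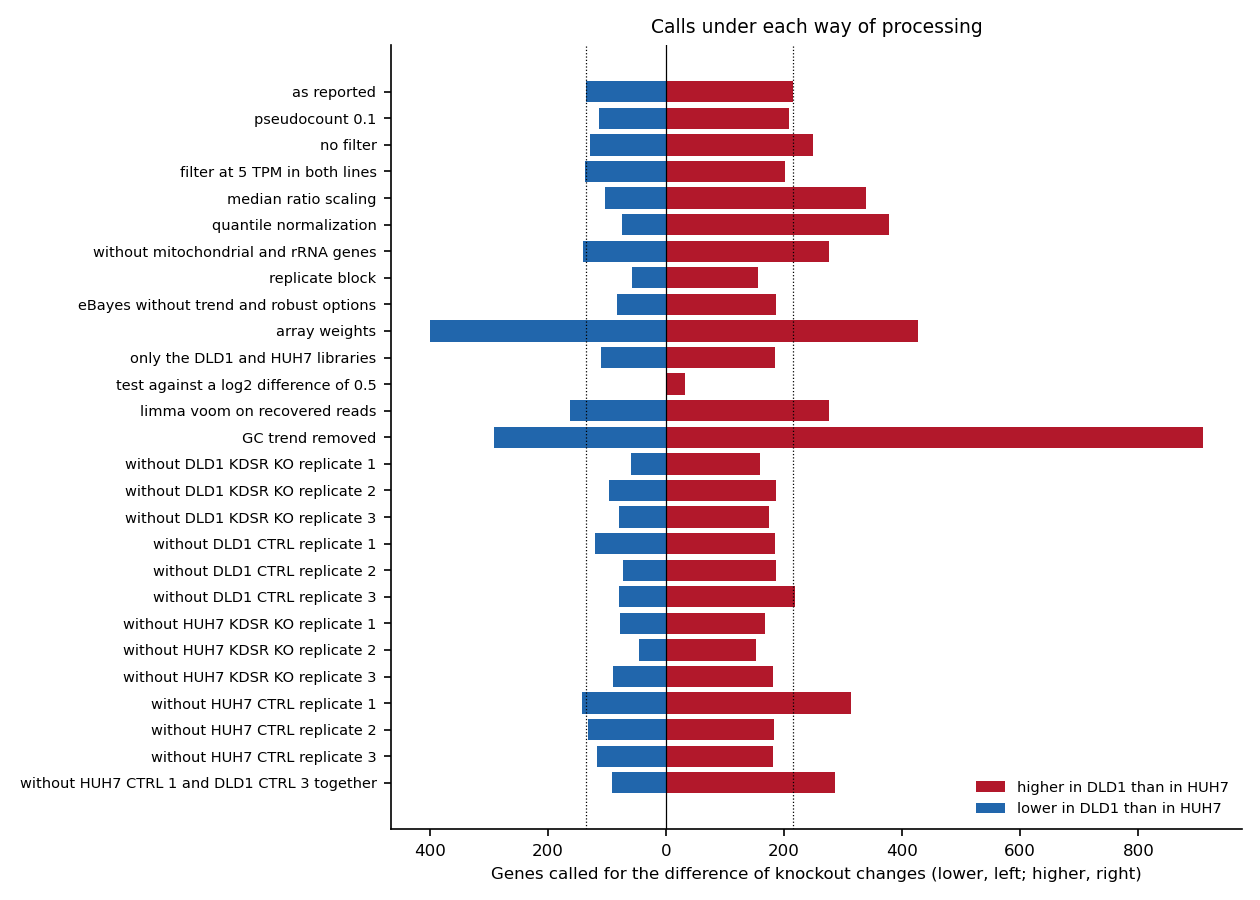
Number of genes called for the difference under each way of processing, higher to the right and lower to the left; dotted lines mark the 215 and 136 genes as reported. The count is lowest with the test against a log2 difference of 0.5 (32) and highest after removal of a GC trend (1201).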

How the data were processed

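Gene expression was measured by RNA sequencing in 18 libraries, 3 in each of 6 groups. The authors deposited TPM values per gene; per the submitters' processing notes, featureCounts 2.0.0 and hg38 were used, and the aligner and the treatment of reads shared by several genes are not given in the sources used here. All 27166 gene identifiers and names matched GENCODE 29. TPM times gene length gave whole reads for 100% of values (within 0.01 reads), which were used for depth and for a voom alternative. TPM is a share of the total, so a rise of abundant genes lowers the others.

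Levels were taken as log2(TPM + 1), which understates the fold of low genes. The 19869 genes whose mean reached 1 TPM in any line were fitted with limma 3.58.1 in R 4.3.3, with 1 mean per group over all 18 libraries, 12 residual degrees of freedom and eBayes with trend and robust options. P-values were adjusted by Benjamini-Hochberg over the 13412 genes compared and called under 0.05. The NCIH838 libraries, collected on day 10, entered only the estimate of spread. KDSR was also tested by an exact permutation of labels within lines. The calling procedure was tested on simulated data. It missed its recovery criterion over all genes, and the criterion was then limited to genes of 5 TPM or more in each line; below that level recovery was poor, so calls there are likely incomplete. The members and the gene lists were chosen with earlier results of these data known, so counts over lists are descriptions and carry no test.

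Named genes were KDSR, the 12 largest differences in each direction (mean of 5 TPM or more in each line and knockout libraries outside the control range in at least 1 line), up to 4 called members per list, called sphingolipid genes, and genes with a larger change in HUH7 or with opposite directions. Clones, LINC, LOC, MIR and pseudogenes were passed over, and a few named genes are not reported here. Alternatives were a pseudocount of 0.1, other filters and scalings, a replicate block, other limma options, a test against a log2 difference of 0.5, the DLD1 and HUH7 libraries alone, voom and leaving out each library. Removal of a GC trend, and of HUH7 CTRL replicate 1 and DLD1 CTRL replicate 3 together, were added after the data were seen.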

Additional observations from a re-analysis of the deposited data

Results flagged for a closer look

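The number of genes whose knockout change differed between DLD1 and HUH7 by a test of the difference itself was 351. Every gene difference called in the report carries that same limma test.

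Among the named genes, 18 also had all KDSR KO libraries outside the range of CTRL in opposite directions in the lines. This count follows in part from selection, because genes were named from called differences. HSPA1A, GPX3, ABHD4, CLU and HYOU1 were also named for their opposite directions. Opposite directions held for 67 of the 351 called genes and for 194 of all 13412 genes compared. The same direction held for 24 of the 351 and for 922 of all 13412. The log2 difference, DLD1 change minus HUH7 change, was positive for HSPA1A (2.74), CLU (1.05), GPX3 (1.005), ABHD4 (0.92), IL32 (0.79), HYOU1 (0.64), SYVN1 (0.58), ICAM1 (0.52), NPLOC4 (0.50), NCKAP5L (0.45) and PDIA4 (0.34). It was negative for RRS1 (-0.34), TGFB2 (-0.37), NOSTRIN (-0.39), DDB2 (-0.50), FAM104B (-0.55), TSPAN12 (-0.61) and JMJD4 (-0.63). In HUH7 none of these changes was called within the line. The calls of RRS1, TGFB2, NOSTRIN, DDB2, FAM104B, NCKAP5L and JMJD4 were lost in 6 to 12 of the 12 fits that left out 1 library.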

How the results depend on the processing

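Of 85 named genes called for the difference, 59 kept the call in all alternatives but the test against a log2 difference of 0.5, 23 kept it there too, and 0 changed direction; 179 of the 351 genes were called in all 12 fits that left out 1 library. The number called for the difference was 826 with array weights, 32 with the test against 0.5 and 1201 with the GC trend removed, and 199 to 455 with single libraries left out. In DLD1 it was 3805 with array weights, 52 with the test against 0.5 and 1387 to 2952 with single libraries left out, falling to 1498 without DLD1 KDSR KO replicate 3 and 1387 without DLD1 CTRL replicate 3. In HUH7 it was 9 with no filter, 3 with the GC trend removed and 0 to 1 with single libraries left out. The causes were not tested.

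Same-numbered libraries did not vary together (correlations of deviations -0.06 to 0.04), so the numbers do not pair the samples; with a replicate block the count was 213 (156 higher, 57 lower).

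The KDSR difference, which was not called, turned positive with a pseudocount of 0.1 (0.0346), median ratio scaling (0.0062), quantile normalization (0.0452), voom (0.06) and GC trend removal (0.0461). With single libraries left out it ran from -0.13 to 0.0269: it was 0.0087 without DLD1 CTRL replicate 2, 0.0089 without HUH7 KDSR KO replicate 2 and 0.0269 without HUH7 CTRL replicate 1. Replicates number 3 per group, which limits the precision of all differences.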

Other observations

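The lowest and the highest difference over all genes compared belonged to genes outside the rule for named genes, chosen after their values were seen. The lowest was -4.16 for AP000553.6, which limma did not call (adjusted p = 0.177), and the highest was 3.95 for the long noncoding RNA AC090192.2, which was called.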
